A study of Mus musculus with 3 samples.

Results

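The arteriolar endothelial cells (ECs) of the adult mouse lacrimal gland (LG) are the cells that line its small arteries and arterioles. They were taken from single-cell counts by a rule on unique molecular identifiers (UMIs, which mark each RNA molecule so that copies made later are not counted again). A member was a cell that exceeded 500 UMIs and 200 genes, kept its mitochondrial share under 15% and had at least 2 UMIs over the endothelial genes *Pecam1*, *Cdh5*, *Kdr*, *Flt1*, *Egfl7* and *Emcn*, at least 2 UMIs over *Cldn5* and *Stmn2*, at most 1 UMI over the venular genes *Selp*, *Ackr1* and *Vcam1*, and 0 UMIs each of *Ptprc*, *Epcam*, *Col1a1* and *Col3a1*. Of 19592 cells that passed the limits, 1604 met the endothelial part of the rule and the exclusions, and 68 of these were members. The cells come from C57BL/6J mice aged 2 months with no treatment, in 3 libraries that each pool the LGs of 3 mice: 1 female library (Female) and 2 male libraries (Male 1 and Male 2). Female held 58 members, Male 1 held 9 and Male 2 held 1. Per the study's methods, cells of Female were handled at a different core and those of both male libraries on another day. Effects of sex, core and preparation day cannot be told apart here, and sex was not tested.

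Arteries carry blood towards the capillary bed, and arterioles set how much of it reaches a tissue. In a secretory gland such as the LG, whose fluid is drawn from the blood, that inflow bears on secretion. The endothelium of arteries is known for Notch signalling between neighbouring cells (ligands such as *Jag1* and *Dll4*, receptors such as *Notch1* and *Notch4*, targets such as *Hey1*), for gap junctions built from the connexins of *Gja4* and *Gja5* that pass electrical signals along the vessel wall, and for contact with elastic fibres made by fibulins and elastin. Capillary endothelium of glands is instead fenestrated, with openings bridged by diaphragms made of the *Plvap* protein. *Cldn5* (GRCm38.p6, chr16:18776847-18778262) encodes claudin 5, the main tight junction claudin of endothelium, and *Stmn2* (chr3:8509527-8561604) encodes stathmin 2, a protein that destabilizes microtubules and is best known from neurons.

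The members held 170524 UMIs in Female, 15026 in Male 1 and 1320 in Male 2, with a median of 2815, 1664 and 1320 UMIs per cell. They were compared with a capillary-type set, which met the same rule but had at most 1 UMI over *Cldn5* and *Stmn2* (701, 325 and 213 cells), and with a venous-type set, which had at most 1 UMI over *Cldn5* and *Stmn2* and at least 2 UMIs over *Selp*, *Ackr1* and *Vcam1* (156, 67 and 66 cells). These names stand for the rules and not for a clustering. In Female, 8 cells exceeded both limits and belong to none of the 3 sets. Levels are given as CPM, the count of a gene scaled to a fixed total of all UMIs, over the summed cells of a library, and the 3 values in a row stand for Female, Male 1 and Male 2. In the 1 cell of Male 2 a single UMI is worth 758 CPM (the level of *Klf2* there), so a value of 0 there says little about a gene, and any gene with a UMI there stands high. No called barcode that 2 libraries share was a member.

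Promoters of 4 genes are shown. They are the rule gene *Cldn5*, and *Jag1*, *Sema3g* and *Fbln5*, whose levels in members of Female and Male 1 lay above the capillary-type set. The choice is a description. Each run covers 250 bases before and 50 after the start site (RefSeq, GRCm38.p6, 5′ to 3′ on the gene's strand). Capitals mark TGGGAA or its other strand TTCCCA, the core bound by RBPJ, the DNA-binding partner of Notch.
*Cldn5*, chr16:18776597-18776896, plus strand: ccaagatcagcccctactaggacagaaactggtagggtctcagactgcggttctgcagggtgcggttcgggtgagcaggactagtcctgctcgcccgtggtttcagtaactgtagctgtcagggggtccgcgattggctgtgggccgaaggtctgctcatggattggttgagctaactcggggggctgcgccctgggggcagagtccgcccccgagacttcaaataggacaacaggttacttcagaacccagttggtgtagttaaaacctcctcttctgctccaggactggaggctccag
*Jag1*, chr2:137116471-137116770, minus strand: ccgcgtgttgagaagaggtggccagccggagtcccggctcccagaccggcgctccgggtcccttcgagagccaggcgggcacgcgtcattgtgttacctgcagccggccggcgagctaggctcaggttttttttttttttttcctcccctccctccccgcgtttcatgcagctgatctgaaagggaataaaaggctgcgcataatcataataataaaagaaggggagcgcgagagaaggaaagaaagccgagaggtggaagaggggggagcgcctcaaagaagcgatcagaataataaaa
*Sema3g*, chr14:31217623-31217922, plus strand: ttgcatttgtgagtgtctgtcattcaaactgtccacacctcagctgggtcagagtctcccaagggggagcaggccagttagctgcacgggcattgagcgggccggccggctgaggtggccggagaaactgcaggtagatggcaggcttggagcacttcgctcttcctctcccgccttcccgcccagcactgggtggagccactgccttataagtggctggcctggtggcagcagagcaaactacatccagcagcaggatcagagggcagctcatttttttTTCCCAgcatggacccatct
*Fbln5*, chr12:101819070-101819369, minus strand: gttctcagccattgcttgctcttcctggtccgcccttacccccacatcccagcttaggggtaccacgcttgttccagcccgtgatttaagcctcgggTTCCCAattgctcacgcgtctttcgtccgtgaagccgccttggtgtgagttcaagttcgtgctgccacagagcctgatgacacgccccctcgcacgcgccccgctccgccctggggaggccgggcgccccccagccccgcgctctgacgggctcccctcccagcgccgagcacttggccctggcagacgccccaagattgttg
The *Sema3g* window held 1 match, 31 bases after the start site, and the *Fbln5* window shown held 1, at 153 bases before it. A second *Fbln5* window (chr12:101818435-101818734) held 0. In the windows of *Cldn5* and *Jag1* these letters did not occur. Of all promoters of this length, 25.6% (8397 of 32851) held a match, as did 25.3% (675 of 2666) of those of genes tested against the capillary-type set and 25.5% (14 of 55) of those of genes called higher. The share among the higher genes therefore equalled the background.

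Members made up 6.28% of the endothelial cells in Female (58 of 923, exact Clopper-Pearson 95% interval 4.81 to 8.05%), 2.24% in Male 1 (9 of 401, 1.03 to 4.22%) and 0.357% in Male 2 (1 of 280, 0.00904 to 1.97%). The libraries differ in depth, and a rule on UMIs finds more members in deeper cells. After every cell was thinned to 1000 UMIs and shallower cells were left out, the shares were 2.90% (25 of 862, 1.89 to 4.25%), 1.29% (4 of 310, 0.353 to 3.27%) and 0.610% (1 of 164, 0.0154 to 3.35%). The order of the libraries stayed and the 3 intervals then overlapped. With at least 3 UMIs over *Cldn5* and *Stmn2* the shares were 4.88, 0.748 and 0.357%. These intervals cover counting error only.

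**Figure D1:**
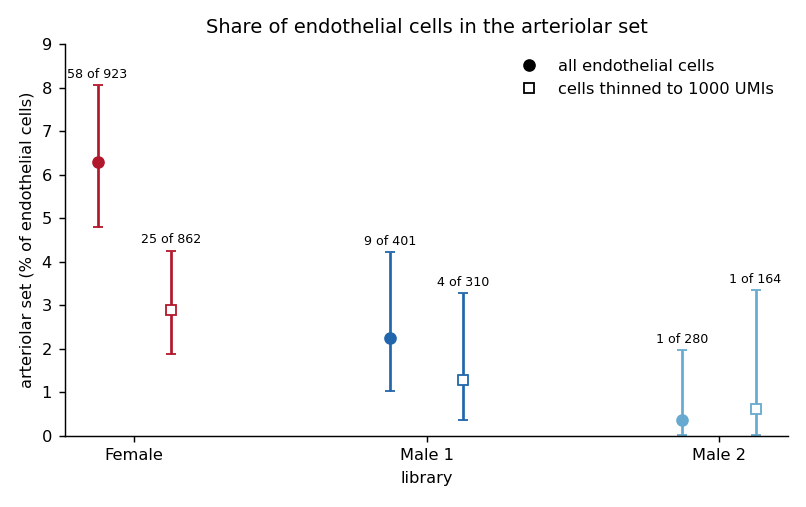
Members as a percent of the endothelial cells of each library, with exact 95% binomial intervals; filled circles use all UMIs, open squares cells thinned to 1000 UMIs, and the numbers are members of endothelial cells. Female is highest by both counts, and the intervals of the thinned shares overlap.

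The genes of the rule are given as a description. Of the 68 members, 44 carried both *Cldn5* and *Stmn2*, 15 *Cldn5* without *Stmn2* and 9 *Stmn2* without *Cldn5*. The sum over both genes was 2 UMIs in 19 members, 3 to 4 in 20 and 5 or more in 29. *Cldn5* stood at 1026, 1065 and 2273 CPM against 15.5, 13.9 and 7.31 CPM in the capillary-type set, and *Stmn2* at 686, 865 and 758 CPM against 6.30, 1.98 and 4.87 CPM. In uncalled barcodes of 10 to 100 UMIs, which hold free RNA, *Stmn2* had 0 UMIs in all 3 libraries and *Cldn5* 0, 4.32 and 0 CPM. Of 938 female epithelial cells thinned to 1000 UMIs, 0 had a UMI of *Cldn5* or of *Stmn2* (upper limit 0.392%). Before thinning 2 had *Cldn5* and 0 had *Stmn2*. These cells were chosen with at least 2 UMIs of *Epcam* and 0 of the endothelial genes of the rule. Epithelial cells that carry endothelial RNA were thus left out beforehand.

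The other naming markers, *Fbln2* and *Clu*, were not used by the rule but helped to name the cell type, so their values are a description too. *Fbln2* encodes fibulin 2, a protein of elastic fibres and basement membranes, and was seen in 41 members at 569, 532 and 1515 CPM against 34.9, 59.4 and 14.6 CPM in the capillary-type set. *Clu* encodes clusterin, a secreted chaperone, and was seen in 36 members at 434, 133 and 758 CPM against 44.6, 73.2 and 92.6 CPM. Both levels were above those of the capillary-type set in all 3 libraries. In Male 1, however, *Clu* rested on 2 UMIs, and after thinning to 1000 UMIs 0 of 9 members there carried it (upper limit 33.6%) against 8.19% of capillary-type cells. Without Female its log2 fold change fell from 2.34 to 0.55. The venous-type set also carried both genes: *Fbln2* had a UMI in 18.8% of its thinned cells in Female and 26.9% in Male 1, against 35.2 and 44.4% of members, and *Clu* in 9.40% of its thinned cells in Female. *Clu* is also a gene of the gland's epithelium: 6.18% of the thinned female epithelial cells (median 4544 UMIs before thinning) had a UMI of it, against 37.0% of the thinned members (median 2815 UMIs) and 4.44% of the capillary-type cells.

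Against the capillary-type set, 71 of 3305 genes tested were higher in the members (2.15%) and 47 were lower (1.42%), together 3.57%, by edgeR's quasi-likelihood test on summed UMIs with the library as a block and an adjusted p under 0.05. The higher genes included 16 listed as arterial, and the lower ones included *Plvap* of the fenestrated capillary. Of 28 genes listed as arterial, 22 could be tested, 16 were higher and 0 were lower, with a median log2 fold change of 1.68 (2.19 with total UMIs as the scaling) beside -0.13 (0.31) over all genes tested. Without Male 2 the 16 kept their direction with an unadjusted p under 0.05. That fit called 0 genes at the adjusted threshold and 388 at an unadjusted p under 0.05. DESeq2 called 40 without Male 2, and edgeR without its small-count adjustment, a form not used in the main analysis, called 64. Without Male 1 edgeR called 9 genes, and without Female 0, with 56 at an unadjusted p under 0.05. On all 3 libraries DESeq2 called 19 genes, 18 higher and 1 lower (*Plvap*), and edgeR without the library block called 5. The list was chosen with earlier results of these data known. Genes low in the capillary-type set passed the filter on low counts only through the members. Among the genes named below they include *Fbln5*, *Gja5*, *Bmx*, *Jag1*, *Jag2*, *Hey1*, *Fn1*, *Sema3g*, *Edn1*, *Gja4* and *Mecom*. The count and the median of the arterial list are therefore a description. For such genes the single fold changes and p-values given below are a description too.

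Matrix genes showed some of the largest differences. *Fbln5*, which encodes the fibulin that tethers elastic fibres to cells, was seen in 40 members with 95, 11 and 0 UMIs, at 557, 732 and 0 CPM against 6.79, 13.9 and 9.75 CPM in the capillary-type set. The levels in Female and Male 1 were far above all 3 capillary values, while the single cell of Male 2 had none. The log2 fold change of *Fbln5* was 5.46 ± 0.43 (SE). It is a description, because *Fbln5* passed the filter on low counts only through the members. *Fn1*, which encodes fibronectin, was at 240, 66.6 and 758 CPM against 7.75, 5.94 and 0 CPM, and rested on 1 UMI each in Male 1 and Male 2 (4.50 ± 0.48). Its value is a description for the same reason. *Mgp*, which encodes matrix Gla protein, an inhibitor of arterial calcification, reached 886 CPM in Female against 37.3 CPM, but rested on 1 UMI in Male 1 (66.6 against 17.8 CPM) and 0 in Male 2 (3.80 ± 0.37, adjusted p = 1.0e-21). *Ltbp4*, which encodes a protein that helps assemble elastic fibres and binds latent TGF-beta, was at 739, 666 and 758 CPM against 206, 144 and 70.7 CPM (1.44 ± 0.35, adjusted p = 0.0024). These were 4 of the 14 genes tested in a list of elastic and basement membrane genes, besides the naming marker *Fbln2*, and 0 were lower. With *Fbln5* and *Fn1* among them, this count is a description. The basement membrane collagens *Col4a1* and *Col4a2*, also capillary genes, did not pass the test (-0.67 ± 0.39 and -0.49 ± 0.38).

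Notch ligands and a Notch target were higher. *Jag1* had 64, 2 and 0 UMIs in members, at 375, 133 and 0 CPM against 12.1, 3.96 and 4.87 CPM (4.50 ± 0.43). *Jag2*, the other Jagged ligand, was at 334, 266 and 0 CPM against 74.6, 31.7 and 24.4 CPM (1.83 ± 0.37). *Hey1*, a transcriptional repressor switched on by Notch, was at 99.7, 266 and 0 CPM against 15.5, 21.8 and 9.75 CPM (2.35 ± 0.51). For all 3 genes Female and Male 1 lay above every capillary value. The delta ligand *Dll4* (0.33 ± 0.52) and the receptors *Notch1* (0.38 ± 0.38) and *Notch4* (0.37 ± 0.53) did not pass the test. Of the 9 Notch pathway genes tested, 3 were higher and 0 lower, beside 2.15% higher and 1.42% lower over all genes tested. *Jag1*, *Jag2* and *Hey1* passed the filter on low counts only through the members. Their values and this count are therefore a description.

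Of the genes by which endothelium sets vessel calibre, 3 of 12 tested were higher and 1 was lower. *Edn1*, which encodes the constrictor endothelin 1, was at 358, 399 and 0 CPM against 35.4, 19.8 and 19.5 CPM (2.98 ± 0.38). The connexin gene *Gja5* had 13, 1 and 0 UMIs, or 76.2, 66.6 and 0 CPM against 1.45, 1.98 and 2.44 CPM (4.79 ± 0.69). The values of *Edn1*, *Gja5* and *Gja4* and the count of 3 higher genes are a description. These genes passed the filter on low counts only through the members. The related connexin gene *Gja4* was at 147, 266 and 0 CPM against 34.4, 13.9 and 4.87 CPM (1.95 ± 0.45). The lower gene was *Ptgs1*, which encodes a cyclooxygenase, with 3 UMIs in members or 0.195 times the number expected at the capillary level (95% counting interval 0.0401 to 0.569). *Nos3*, the endothelial nitric oxide synthase, was at 88.0, 0 and 0 CPM against 34.9, 19.8 and 12.2 CPM and did not pass (0.85 ± 0.52). *Trpv4*, a calcium channel of endothelium that responds to osmotic and mechanical stimuli, rested on 9, 1 and 1 UMIs (1.98 ± 0.61, adjusted p = 0.037).

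Signals and regulators of arterial identity followed. *Sema3g*, a secreted semaphorin of arterial endothelium, was at 393, 399 and 0 CPM against 26.2, 15.8 and 12.2 CPM (3.52 ± 0.39). *Bmx*, a kinase of arterial endothelium and endocardium, was at 106, 200 and 0 CPM against 8.72, 1.98 and 4.87 CPM (3.42 ± 0.54). The values of *Sema3g* and *Bmx* are a description, because both genes passed the filter on low counts only through the members. *Sox17*, a transcription factor that acts early in arterial fate, was at 592, 466 and 0 CPM against 206, 73.2 and 36.6 CPM (1.24 ± 0.35, adjusted p = 0.016). *Bmp6* and *Smad6*, a BMP ligand and an inhibitor of BMP signalling, were higher on 11 and 12 UMIs (2.93 ± 0.64 and 1.91 ± 0.59) among 14 genes of the TGF-beta and BMP list. *Mecom*, a transcription factor gene, was at 205, 399 and 758 CPM against 43.1, 19.8 and 29.2 CPM (2.12 ± 0.41, a description for the same reason). *Slc6a6*, which encodes the taurine transporter, was at 1255, 865 and 758 CPM against 350, 154 and 53.6 CPM (1.51 ± 0.36, adjusted p = 0.0017). *Vim*, which encodes the filament protein vimentin, had a log2 fold change of 1.26 ± 0.36 (adjusted p = 0.018), and *Azin1*, *Atp13a3*, *Hacd4* and the fatty acid receptor gene *Cd36* lay between 1.77 and 2.30. One sign in all libraries was a condition for naming these genes and *Mecom*, and each had 1 UMI in the cell of Male 2, except *Vim* with 2. In DESeq2 *Azin1*, *Atp13a3* and *Cd36* did not pass (adjusted p = 0.18, 0.078 and 0.71). Of 56 genes named against the capillary-type set, 12 kept their call in DESeq2 and 44 were weaker there.

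**Figure D2:**
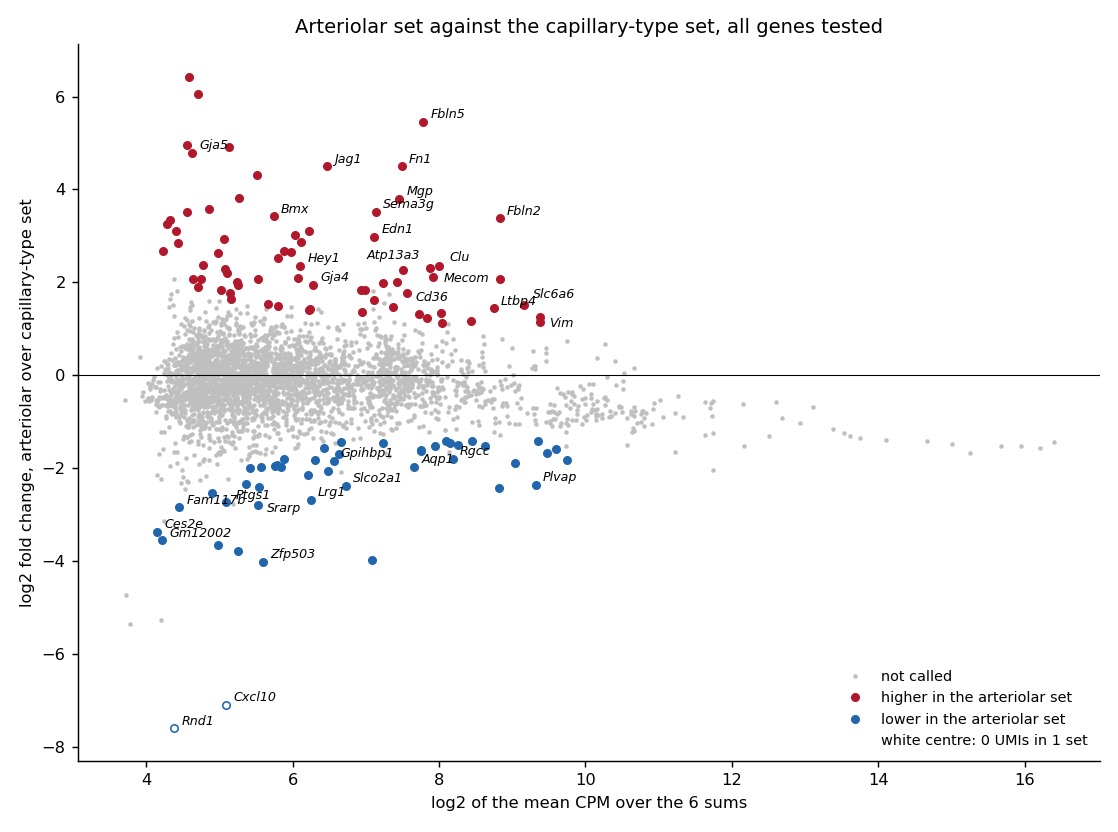
Log2 fold change of the members over the capillary-type set (vertical) against the log2 mean CPM over the 6 sums (horizontal) for each gene tested, the rule genes left out; red and blue points passed the test as higher or lower, and a white centre marks genes without a UMI in 1 of the sets, whose fitted value is no estimate. *Fbln5*, *Jag1*, *Fn1* and *Mgp* stand at the top among genes of moderate level, and *Plvap* is the lower gene named with a high level.

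Of 23 capillary genes, 18 were tested, 4 were lower and 2 higher, with a median of -0.92 (-0.35 with total UMIs). *Plvap* had 65, 2 and 0 UMIs in members, at 381, 133 and 0 CPM against 1262, 1221 and 838 CPM, so Female and Male 1 lay below the capillary range (-2.36 ± 0.50, adjusted p = 1.9e-04). *Rgcc*, a cell cycle regulator of capillary endothelium, was at 229, 200 and 0 CPM against 600, 439 and 278 CPM (-1.80 ± 0.45, adjusted p = 0.0034). *Gpihbp1*, which carries lipoprotein lipase to the capillary lumen, was at 93.8, 0 and 0 CPM against 240, 156 and 75.6 CPM (-1.84 ± 0.48, adjusted p = 0.0074), and *Plpp1* was the other lower gene (-1.46 ± 0.43). In DESeq2 *Plvap* passed as lower (adjusted p = 0.013) and *Rgcc*, *Gpihbp1* and *Plpp1* did not (adjusted p = 0.53, 0.76 and 1.0). *Fabp4*, a fatty acid carrier, was higher in Female and Male 1 at 827 and 1464 CPM against 123 and 247 CPM and absent from the cell of Male 2 (2.07 ± 0.35, adjusted p = 6.3e-07). *Fabp4* did not pass in DESeq2 (adjusted p = 0.22) or in edgeR without the small-count adjustment (adjusted p = 0.42). *Cxcl12*, a chemokine gene, was at 1988, 1531 and 3030 CPM against 2238, 1684 and 1126 CPM, and the sets overlapped (-0.73 ± 0.48, adjusted p = 0.57).

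*Aqp1*, the water channel of vessels, was at 123, 133 and 0 CPM against 353, 364 and 241 CPM (-1.97 ± 0.48, adjusted p = 0.003). Of the lower genes in this paragraph 0 passed in DESeq2, *Aqp1* with an adjusted p of 0.51. *Slco2a1*, a prostaglandin transporter, was at 46.9, 66.6 and 0 CPM against 185, 220 and 117 CPM (-2.38 ± 0.57, adjusted p = 0.002). *Rnd1*, which encodes a small GTPase, had 0 UMIs in members and was at least 3.01-fold lower than in the capillary-type set, against a floor of 3 UMIs over the group. On the same floor the chemokine gene *Cxcl10* was at least 1.73-fold lower. For *Zfp503*, *Gm12002*, *Ces2e*, *Fam117b*, *Lrg1* and *Fbxw2*, the other lower genes with 1 to 3 UMIs, the ratio to the number expected at the capillary level lay between 0.0783 and 0.233; the counting interval was 0.00949 to 0.283 for *Zfp503* and 0.048 to 0.68 for *Lrg1*. *Srarp* had 4 UMIs against 21.3 expected. Each of these genes was lower in Female and Male 1, and the cell of Male 2 had 0 UMIs of each.

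**Figure D3:**
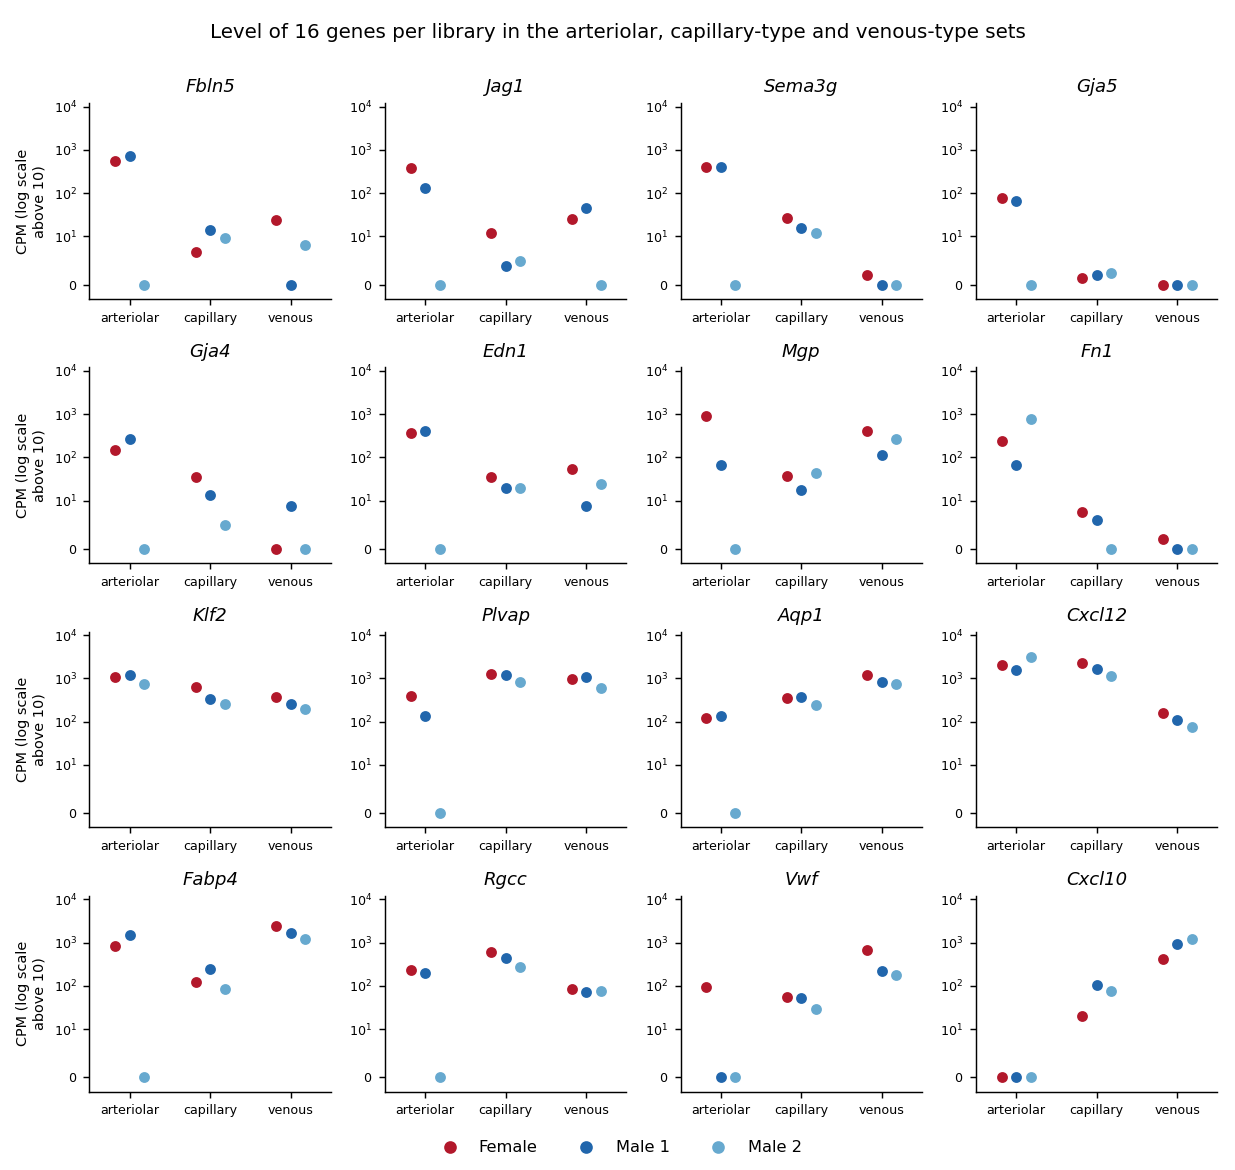
CPM (log scale above 10, linear below) of 16 genes in the arteriolar, capillary-type and venous-type sets, 1 point for the summed cells of each library; the arteriolar point of Male 2 is a single cell. Female and Male 1 of the arteriolar set lie above the capillary and venous points for *Fbln5*, *Jag1*, *Sema3g*, *Gja5*, *Gja4* and *Edn1*, and below the capillary points for *Plvap*.

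Of 17 pan-endothelial genes outside the rule that were tested against the capillary-type set, 0 were called either way by edgeR, with a median of -0.09 (0.38 with total UMIs). *Ptprb*, an endothelial phosphatase, was at 1554, 865 and 1515 CPM in members and 671, 346 and 202 CPM in the capillary-type set (0.74 ± 0.38, adjusted p = 0.38). The flow-induced transcription factor gene *Klf2* was at 1073, 1198 and 758 CPM against 623, 333 and 256 CPM; all 3 libraries were higher, and it did not pass (0.48 ± 0.38, adjusted p = 0.68). Of the stathmin and tubulin genes other than *Stmn2*, 0 of 7 tested were called by edgeR against the capillary-type set. Against the venous-type set 4 of 16 pan-endothelial genes were higher and 0 lower, namely *Podxl* (2.29 ± 0.32), *Ly6c1* (1.5 ± 0.30), *Icam2* (1.44 ± 0.42) and *Sox18* (1.44 ± 0.37). Over all genes tested against that set, 8.61% were higher and 15.2% lower.

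Against the venous-type set, 115 of 1336 genes tested were higher in the members (8.61%) and 203 were lower (15.2%), together 23.8%. With total UMIs as the scaling the balance turned, to 203 higher and 132 lower. Without Female, Male 1 or Male 2, edgeR called 1, 2 and 0 genes, with 420 at an unadjusted p under 0.05 in the last, where DESeq2 called 79. That venule genes are lower follows in part from how that set was chosen. Of the listed venous genes outside the rule, 10 of 10 tested were lower, with a median of -2.70. *Sele*, the endothelial selectin induced by inflammation, had 0 UMIs in members against 406, 559 and 446 CPM, at least 26.1-fold lower, and *Cxcl10* was at least 28.7-fold lower. *Rnd1* was at least 20.8-fold, *Cysltr1* 9.73-fold, *Adamts4* 7.05-fold and *Il6* 4.34-fold lower on the same floor. *Rcan1* and *Tmem252* had 1 UMI each, or 0.0178 (0.00045 to 0.099) and 0.0208 (0.000527 to 0.116) times the number expected at the venous level. *Vwf*, which encodes von Willebrand factor, was at 93.8, 0 and 0 CPM against 687, 222 and 174 CPM (-3.17 ± 0.43, adjusted p = 8.4e-08).

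Of the arterial genes, 14 of 18 tested were higher than in the venous-type set and 0 lower, with a median of 2.29 (2.72 with total UMIs) beside -0.07 (0.31) over all genes tested. Genes low in that set, such as *Hey1*, *Efnb2* and *Fn1*, passed the filter on low counts only through the members. This count, this median and the values of such genes are therefore a description. *Hey1* and *Gja5* had 0 UMIs in the venous-type cells, which puts the members at least 27.6-fold and 18.4-fold higher. *Sema3g* and *Gja4* had 1 UMI each there, against 73 and 29 in members. *Efnb2*, the arterial ephrin ligand that faces the venous receptor EphB4, was at 188, 200 and 758 CPM against 29.9, 17.8 and 24.8 CPM (2.47 ± 0.48, a description). Against the capillary-type set *Efnb2* did not pass (0.89 ± 0.41, adjusted p = 0.29). *Fn1* (6.31 ± 0.77), *Slc6a6* (2.78 ± 0.32), *Atp13a3* (3.30 ± 0.61), the scaffold gene *Slc9a3r2* (2.47 ± 0.34) and the peroxiredoxin gene *Prdx4* (2.14 ± 0.58) were also higher. *Mgp* was abundant in both sets, at 416, 115 and 273 CPM in the venous-type cells, and did not pass (0.66 ± 0.32, adjusted p = 0.14).

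Several genes took another order over the 3 sets. *Cxcl12*, which did not pass against the capillary-type set, was above the venous-type set at 155, 107 and 74.4 CPM (3.41 ± 0.33, adjusted p = 2.6e-11). *Rgcc* lay between them, below the capillary-type and above the venous-type set (1.11 ± 0.41, adjusted p = 0.040). *Fabp4* was also intermediate, in the opposite order (-1.53 ± 0.37 against the venous-type set, at 2347, 1651 and 1207 CPM there). *Aqp1* was lowest in the members and highest in the venous-type set at 1217, 808 and 727 CPM (-3.52 ± 0.42, adjusted p = 7.4e-09). The BMP target genes *Id1* and *Id3* were higher than in the venous-type set (3.14 ± 0.38 and 1.69 ± 0.31) and did not pass against the capillary-type set (0.26 ± 0.37 and -0.22 ± 0.40). *Klf2* (1.33 ± 0.30) and *Klf4* (0.93 ± 0.30), both induced by laminar flow, were higher than in the venous-type set. Against all other endothelial cells together, 69 of 3805 genes were higher (1.81%) and 60 lower (1.58%), together 3.39%, and with total UMIs as the scaling 151 were higher and 39 lower.

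Within Female, levels were read by the number of *Cldn5* and *Stmn2* UMIs, as a description that also shows cells on both sides of the threshold. Just outside it, the 45 cells with 1 UMI had *Fbln5* at 81.0 CPM (exact Poisson interval 38.8 to 149 CPM) and *Plvap* at 859 CPM (703 to 1039 CPM). Just inside it, the 13 members with 2 UMIs had *Fbln5* at 27.1 CPM (0.685 to 151 CPM) and *Plvap* at 920 CPM (637 to 1286 CPM). The intervals of these 2 genes overlapped across the threshold. Those of *Edn1* did not, at 243 CPM (164 to 347 CPM) outside and 0 CPM (0 to 99.8 CPM) inside, nor did those of *Klf2*, at 1126 CPM (947 to 1330 CPM) outside and 568 CPM (352 to 869 CPM) inside. The 18 members with 3 to 4 UMIs had *Fbln5* at 513 CPM, *Jag1* at 192 CPM and *Plvap* at 555 CPM. The 27 with 5 or more had *Fbln5* at 807 CPM (629 to 1019 CPM), *Jag1* at 634 CPM, *Mgp* at 1498 CPM and *Plvap* at 57.6 CPM (18.7 to 134 CPM), against 1288 CPM of *Plvap* in the 656 cells without either UMI. The *Plvap* UMIs of the female members with 2 UMIs came from 6 of the 13 cells. Male 1 did not show this pattern: its 6 members with 2 UMIs had *Plvap* at 202 CPM (24.4 to 728 CPM) against 1221 CPM in its capillary-type set, and *Fbln5* at 605 CPM (222 to 1316 CPM), seen in 4 of them. Its 8 cells with 1 UMI, just outside the threshold, had *Plvap* at 251.1 CPM (51.8 to 734 CPM) and *Fbln5* at 335 CPM (91.2 to 857 CPM), and these intervals overlap those of the members with 2 UMIs.

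**Figure D4:**
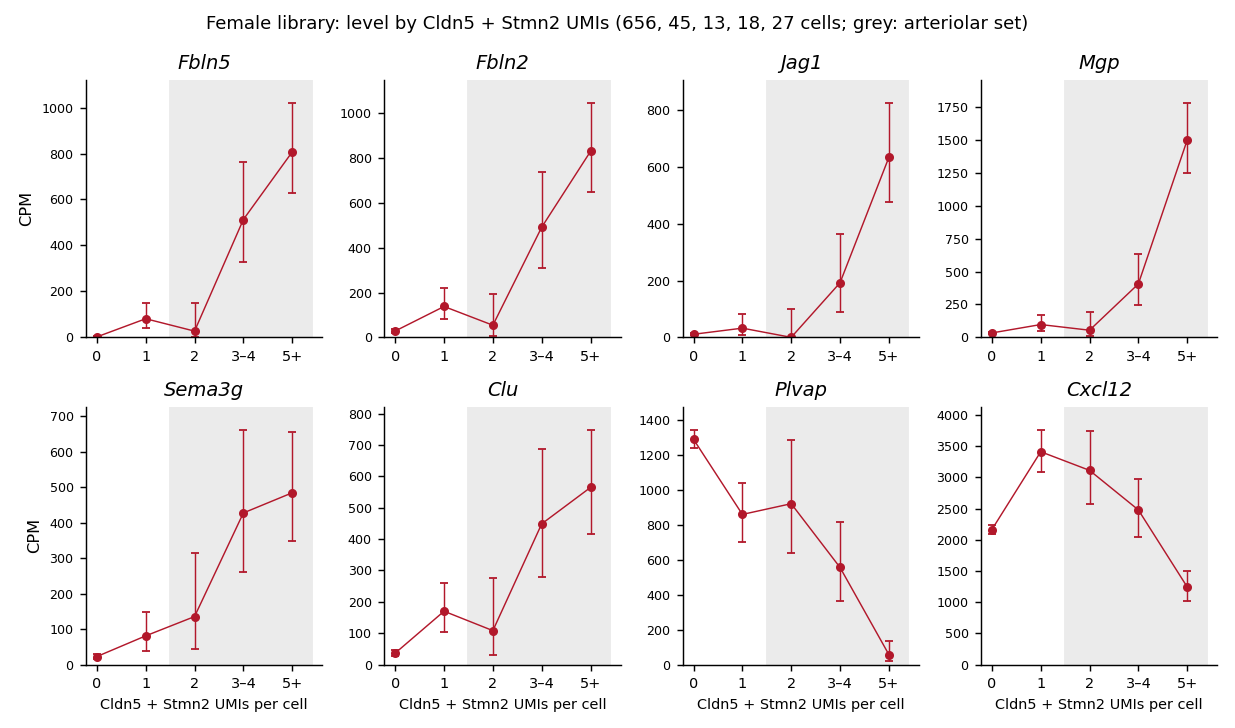
CPM of 8 genes in female endothelial cells grouped by their summed *Cldn5* and *Stmn2* UMIs, with exact 95% Poisson intervals of the summed counts; grey marks the members. *Fbln5*, *Fbln2*, *Jag1*, *Mgp*, *Sema3g* and *Clu* are highest in cells with 5 or more UMIs and *Plvap* is lowest there.

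Detection differed among the members. *Plvap* was seen in 17 of the 68, *Fbln5* or *Fbln2* in 49, and both kinds together in 7. Of 12 arterial genes outside the rule, 64 members carried at least 1, 49 at least 3 and 40 at least 5, while 4 carried none. The 15 female members with *Plvap* had *Fbln5* at 191 CPM and *Jag1* at 69.4 CPM, against 744 and 532 CPM in the 43 without it, at a median of 3421 against 2244 UMIs per cell. Their *Cxcl12* was at 3243 CPM against 1347 CPM, and their *Kdr*, the main VEGF receptor gene, at 1110 CPM against 346 CPM. Members with *Cldn5* but no *Stmn2* leaned to the capillary side: the 13 in Female had *Cxcl12* at 4115 CPM, *Plvap* at 981 CPM and *Fbln5* at 71.8 CPM, against 1164, 193 and 745 CPM in the 38 with both genes.

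*Mgp* divided the members in another way. The 23 female members with *Mgp* had *Fbln2* at 1114 CPM and *Clu* at 870 CPM, against 292 and 212 CPM in the 35 without it. They had *Cxcl12* at 279 CPM against 2856 CPM, *Plvap* at 69.6 CPM against 539 CPM and *Kdr* at 192 CPM against 814 CPM, at a median of 2124 against 3135 UMIs per cell. *Gkn3* and *Cytl1*, genes known from arteries, were seen in 8 and 6 of the 24 members with *Mgp* and in 0 and 0 of the 44 without it, and the elastin gene *Eln* in 9 and 5. *Vwf* was at 226 against 26.5 CPM. In the libraries as a whole, *Gkn3* had 23 UMIs in members, all in Female, against 2 in the capillary-type and 1 in the venous-type set. These splits were made on measured values and describe detected UMIs, with no test.

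**Figure D5:**
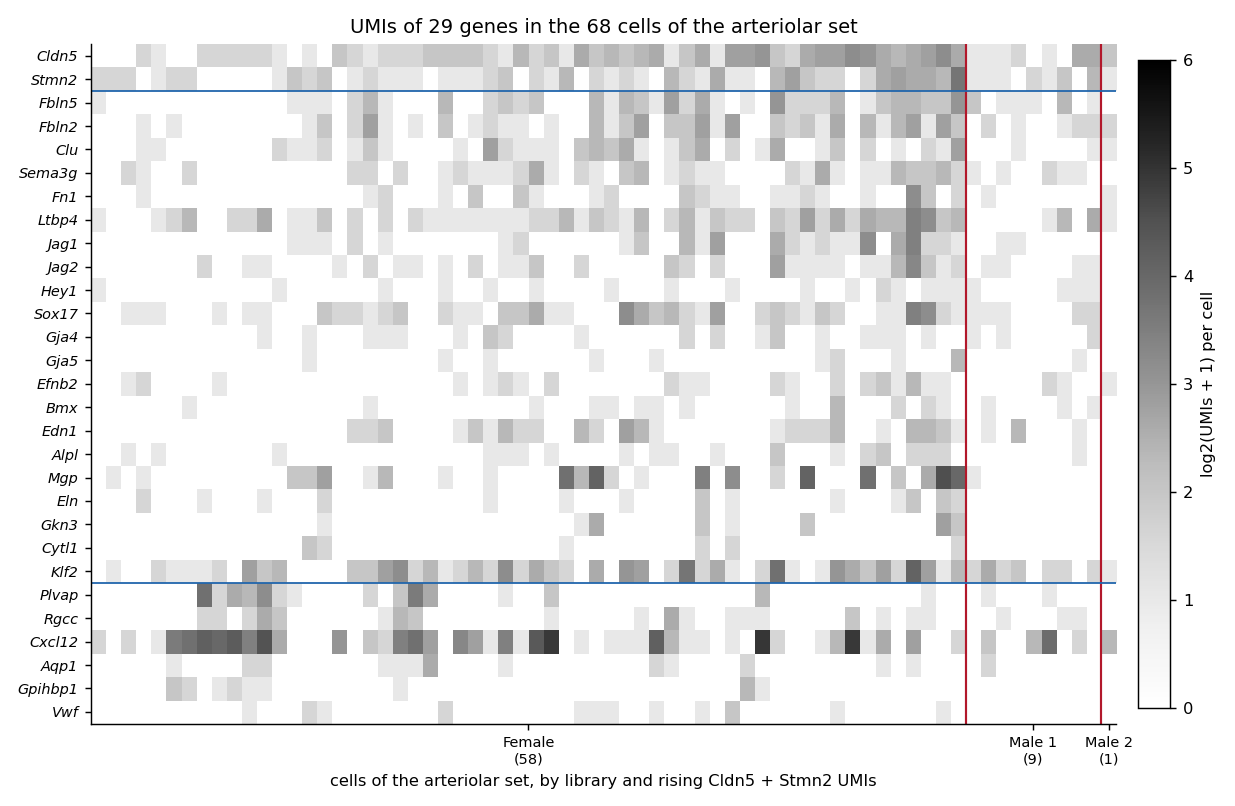
UMIs of 29 genes, as log2(UMIs + 1), in each of the 68 members; columns are single cells ordered by library and by rising *Cldn5* and *Stmn2* UMIs, red lines part the libraries and blue lines part the rule genes, the arterial genes and the genes of other vessel beds. Cells with the most *Plvap* stand to the left of Female, and *Mgp*, *Gkn3* and *Cytl1* fall in an overlapping group of cells.

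Markers of other cells were counted in the members. Of 13 mural genes, 4 had UMIs (22 in all), *Rgs5* and *Myh11* were at 0, and the summed level was 111, 200 and 0 CPM against 168, 119 and 236 CPM in the capillary-type set. Of 10 fibroblast genes 1 could be tested, *Pi16*, through its level in the members, and it was called (14 UMIs in 8 members, 76.2, 66.6 and 0 CPM against 0.485, 0 and 0 CPM), while the list summed to 117, 66.6 and 0 CPM against 18.9, 27.7 and 4.87 CPM. *Pi16* also stands in the list of flow-induced genes. Epithelial genes summed to 176, 266 and 0 CPM against 281, 416 and 407 CPM and 0 of 4 tested were called by edgeR. Myeloid genes summed to 334, 333 and 0 CPM against 188, 269 and 312 CPM, and 27 of the 62 UMIs were *Cd74* in a single female member. Lymphoid genes summed to 141, 0 and 0 CPM against 69.3, 29.7 and 46.3 CPM. Platelet and red cell genes had 0 UMIs. The part of these cells in the results was not tested.

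Lymphatic endothelium also uses *Cldn5*. Of 12 listed lymphatic genes, 8 had UMIs in members, 39 in all, and the list summed to 217, 66.6 and 758 CPM against 55.7, 29.7 and 26.8 CPM in the capillary-type set, so members were higher in every library. *Flt4* was seen in 11 members, the cell of Male 2 among them. *Prox1*, *Lyve1* and *Mmrn1* were seen in a single female member, with 1, 6 and 9 UMIs, which also had 6 UMIs of *Cldn5* and 1 of *Fbln5*. With all cells carrying a UMI of *Prox1*, *Lyve1*, *Mmrn1*, *Ccl21a* or *Flt4* left out, 57 members remained (49, 8 and 0). That fit, which has no member of Male 2, called 0 genes by edgeR against the capillary-type set and 400 at an unadjusted p under 0.05.

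UMIs of tear-product genes, which also fill uncalled barcodes, made up 30.4, 53.4 and 49.1% of the UMIs of members, 38.5, 55.5 and 66.0% of those of the capillary-type set, and 76.0, 84.4 and 84.6% of those in uncalled barcodes of 10 to 100 UMIs. *Scgb2b3*, a secretoglobin gene, was the 1 gene called of 44 tested tear-product genes (lower), and it had 0 UMIs in both sets of Female. With tear-product genes left out, 119 genes were called against the capillary-type set, in place of 118.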

How the data were processed

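Single-cell RNA was measured in 3 pooled LG libraries, treated as separate samples. The authors deposited counts of UMIs per gene and barcode, made with Cell Ranger 6.1.2 on mm10 per the submitters' processing notes, as raw and filtered matrices. The filtered counts were used, and 0 columns of per-sample values were left unused. Totals over all barcodes were 154532064, 117291721 and 102463570 UMIs for Female, Male 1 and Male 2, with 9737, 6422 and 6899 called barcodes.

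The members and gene lists were chosen with earlier results of these data known. UMIs were summed per library and set. Genes passing filterByExpr were tested in edgeR 4.0.16 (R 4.3.3) with TMM scaling, quasi-likelihood fits and Benjamini-Hochberg adjustment. The 15 genes of the rule were fitted but left out of counts of calls. The library was a block, because both sets of a library come from the same suspension. The library factor of the single cell of Male 2 is estimated from 1320 UMIs. The quasi-dispersion adjustment for small counts was chosen on simulated counts. The simulation kept here was run with that form only, so the false calls of the form without it are not given. P-values rest on a spread between these 3 libraries that edgeR shares over genes. Against the capillary-type set and all other endothelial cells the main fit used this shared spread in place of each gene's own. These p-values therefore do not measure how much a single gene varies between libraries. Intervals cover counting error only.

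Named genes were the 12 called genes with the largest change each way against the capillary-type set (8 against the venous-type set) among those with 1 sign in all libraries and at least 20 UMIs, the called genes of each list, and the 4 with most UMIs in each list. *Col4a1*, *Dll4*, *Notch4*, *Nos3*, *Gkn3*, *Cytl1* and *Eln* were named after their values were seen. Doublets were not removed in the main analysis; as an alternative the highest scrublet scores (scanpy 1.11.5) were removed. DESeq2 1.42.0 was another alternative. Sums and figures used python 3.11.15, numpy 2.4.6, scipy 1.17.1, pandas 2.3.3 and matplotlib 3.10.9.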

Additional observations from a re-analysis of the deposited data

How the results depend on the processing

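Counts of called genes are given for the members against the capillary-type set, the venous-type set and all other endothelial cells, which were 118, 318 and 129. The samples were paired by library, and without the replicate block 5, 31 and 9 genes were called. Leaving out 1 library gave 0 to 9, 0 to 2 and 0 to 15 calls: 0, 1 and 0 without Female, 9, 2 and 15 without Male 1, and 0, 0 and 0 without Male 2 by edgeR, with 388, 420 and 408 genes at an unadjusted p under 0.05. Without Male 2, DESeq2 called 40, 79 and 81, of which 32, 79 and 9 were among the 118, 318 and 129. The 81 were 2 higher and 79 lower. EdgeR without the small-count adjustment called 64 and 59 without Male 2 against the first and the last set. Of the called genes with a value, 117 of 117, 306 of 306 and 127 of 127 kept their direction without Male 2, and 56 of 57, 157 of 167 and 72 of 77 without Female. DESeq2 on all libraries called 19, 60 and 24, of which 1, 46 and 3 were lower. Leaving out cells with a UMI of lymphatic genes gave 0, 0 and 0 by edgeR, with 400, 390 and 423 at an unadjusted p under 0.05. At least 3 UMIs over *Cldn5* and *Stmn2* gave 44 and 52 against the first and the last set. Total UMIs in place of TMM gave 192 against the capillary-type set, of which 164 were higher and 28 lower, beside 71 and 47. Against the venous-type set the split became 203 and 132 beside 115 and 203, and against all others 151 and 39 beside 69 and 60. Without the small-count adjustment, an alternative chosen after seeing the data as were both of its kind without Male 2, 72 and 161 were called against the capillary-type and venous-type sets, and without a filter on low counts 185 against the venous-type set. The share of members moved to 2.90% in Female when thinned, to 0.748% in Male 1 at 3 UMIs and to 0% in Male 2 without lymphatic genes. *Scgb2b3* against the capillary-type set was at a log2 fold change of 0.11 without Male 2 in DESeq2. Against the venous-type set, leaving out 1 library moved *Atf3* from -3.49 to 0.31, *Col4a2* from -0.36 to 1.65, *Egr1* from -2.24 to 0.52, *Fos* from -1.49 to 0.14 and *Jun* from -1.28 to 0.45. The causes were not tested. The 1320 UMIs of the 1 member of Male 2 limit what that library can show.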

Other observations

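Some genes of the early stress response, which cell dissociation is known to induce, were called lower in the members. Against the capillary-type set 3 of 20 tested were lower (*Egr1*, *Ier3* and *Zfp36*) and 0 higher, beside 1.42% lower and 2.15% higher over all genes tested. The median log2 fold change of the list was -0.98 (-0.47 with total UMIs). Against the venous-type set 12 of 19 were lower, and the heat shock genes *Hspa1a* and *Hspa1b* were higher, beside 15.2% lower and 8.61% higher over all genes tested. The median of the list there was -1.08 (-0.74 with total UMIs). Without Female, 4 of the 12 lower genes turned to the other direction: *Egr1* (0.52), *Jun* (0.45), *Atf3* (0.31) and *Fos* (0.14). The list summed to 8644, 9583 and 758 CPM in the members and to 12271, 9315 and 6895 CPM in the capillary-type set. Male 1 was therefore not lower there, while Female and the cell of Male 2 were. *Ier3* was at 305, 466 and 0 CPM in the members, 840, 903 and 634 CPM in the capillary-type set and 3186, 2353 and 2124 CPM in the venous-type set, and the order was the same in Female and Male 1.

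Genes of ribosomal proteins, a list added after values were seen, summed to 89852, 70278 and 71212 CPM in the members and to 162387, 137312 and 121060 CPM in the venous-type set. Of 82 tested, 74 were lower than in the venous-type set and 0 higher, beside 15.2% lower and 8.61% higher over all genes tested. The capillary-type set lay between at 100666, 96213 and 73429 CPM, where 0 of 84 were called by edgeR. Against the venous-type set the median log2 fold change of the list was -1.20 (-0.78 with total UMIs). Over all genes tested against that set it was -0.07 (0.31 with total UMIs).

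*Gap43*, a gene of growing axons that like *Stmn2* is best known from neurons, had 12 UMIs in 6 female members and 0 in the capillary-type and venous-type sets, which puts the members at least 63.8-fold and 15.7-fold higher on a floor of 3 UMIs over each set. The list of 9 nerve genes that holds it summed to 88.0, 0 and 0 CPM in the members against 11.1, 5.94 and 7.31 CPM in the capillary-type set, and the part of nerve cells in this was not tested. *Col8a1* had 34 UMIs in 20 members (log2 fold change 4.31 ± 0.51 against the capillary-type set), *Pcsk5* 24 in 18 (4.92 ± 0.60) and *Npnt* 29 in 20 (3.11 ± 0.48). They encode a collagen, a proprotein convertase and nephronectin, a matrix ligand of integrins. These genes were picked after their values were seen, so the values are a description.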
